A study of Mus musculus with 18 samples.

Results

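The genes of the unfolded protein response and the integrated stress response described here were 10, *Atf4*, *Ddit3*, *Atf3*, *Trib3*, *Chac1*, *Sesn2*, *Asns*, *Ppp1r15a*, *Xbp1* and *Hspa5*, of 19919 gene symbols listed in the 3 expression tables. They were chosen by symbol, with their FPKM in these libraries already known, so their levels and differences are given as a description with no p-value. Counts of them past a limit of p are set beside the share of all genes. These counts and the intervals of the 10 are description too and no evidence for a difference. All 10 were listed in each table, and RNA-seq values were available for all 18 libraries. RNA came from progenitors sorted from the bone marrow of C57BL/6 mice aged 6 to 8 weeks. WT mice were *Trim33* fl/fl and carried no Cre. KO mice were *Trim33* fl/fl with Cre-ERT2, a tamoxifen-dependent recombinase made in most cell types, which removes exons 2 to 4 of *Trim33*, the gene of a chromatin-bound ubiquitin ligase and transcription cofactor. Both genotypes were given tamoxifen, 2 mg daily for 5 days, and the cells were taken 7 days later. Since WT mice had the drug but not the recombinase, its activation and the loss of *Trim33* cannot be told apart in these libraries. The populations were MPPs, which are Lin- cells with Sca-1, CD117, CD34 and FLT3, CD115- CDPs, which have FLT3 and intermediate CD117 without CD115 or CD127, and CLPs, in which CD127 is present beside Sca-1, CD117 and FLT3. Each population had 3 WT libraries and 3 libraries labelled KO, with replicate numbers 1 to 3 in both genotypes.

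Cells meet misfolded protein in the endoplasmic reticulum (ER) with the unfolded protein response, which starts from the membrane sensors PERK, IRE1 and ATF6. IRE1 splices the *Xbp1* mRNA, and XBP1 and ATF6 then raise chaperones such as HSPA5 (BiP) and the machinery that removes misfolded protein. PERK also belongs to the integrated stress response, in which kinases sensing amino acid shortage, haem shortage or viral RNA likewise phosphorylate the translation factor eIF2. General translation falls, translation of *Atf4* mRNA rises, and ATF4 induces genes of amino acid supply, *Atf3*, *Ddit3* (CHOP), *Trib3*, *Chac1* and *Sesn2*. *Ppp1r15a* (GADD34) directs a phosphatase to eIF2 and ends the response. Haematopoietic progenitors are known to be sensitive to protein folding stress, and XBP1 is best known in blood cells for its part in plasma cells and DCs. The *Atf4* mRNA level is not a measure of ATF4 protein, and gene-level FPKM does not separate spliced from unspliced *Xbp1*.

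The libraries were of like depth, between 19.2 and 21.2 M mapped reads as estimated from the steps between low values. *Trim33* itself, whose exons 5 onward remain in the count, did not separate the genotypes in any population. In MPPs it was 10.42, 10.12 and 8.78 FPKM in WT 1 to 3 and 9.71, 11.66 and 4.80 FPKM in the libraries labelled KO 1 to 3. In CD115- CDPs the level was 12.6 ± 3.78 FPKM in the WT libraries against 7.32 ± 2.93 FPKM under the KO label, and in CLPs 9.41 ± 2.72 against 6.93 ± 1.15 FPKM (SD, n = 3 each). The libraries are therefore named by their labels. The defining markers were present, with none at 0. In MPPs *Cd34*, *Flt3*, *Kit* and *Ly6a* summed to 840.96 to 916.28 FPKM in WT and 639.95 to 840.89 FPKM in KO. *Kit* (means 72.7 in WT and 38.2 FPKM in KO) and *Ly6a* (65.3 and 38.8 FPKM) were lower in all KO-labelled MPPs. *Cd34* and *Flt3* overlapped. In CD115- CDPs *Flt3* and *Kit* summed to between 166.24 and 247.97 FPKM, and both overlapped. In CLPs *Il7r*, *Flt3*, *Kit* and *Ly6a* summed to between 358.37 and 425.56 FPKM. There *Kit* (11.49 to 13.84 FPKM in WT and 18.63 to 22.44 FPKM in KO) and *Cd34* were higher in all KO-labelled libraries. *Il7r*, *Flt3* and *Ly6a* overlapped. The part of these differences in the results was not tested. Although CD115- CDPs are defined without CD115, its gene *Csf1r* was at 39.11 to 136.77 FPKM in WT CD115- CDPs, highest in WT 3. It was at 11.45, 9.24 and 37.18 FPKM in KO 1 to 3, all below WT. All KO-labelled libraries were also below WT in MPPs (means 14.8 in WT and 4.23 FPKM in KO) and CLPs (21.7 and 6.06 FPKM). The libraries labelled MPP KO 3 and both CD115- CDP libraries numbered 3 stood apart from the others of their groups in the stress response genes, and results are given with and without them.

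The promoters of the 10 genes were read from RefSeq (build GRCm38.p6, 250 bases before to 50 after the transcript start), where all 10 matched. They are shown because the ATF4 and ATF6 elements of the pathway have known letters. The 10 include known targets of these factors, so the shares below say nothing about these libraries. Whether the elements go with movement across libraries was not tested. The ATF4 element TGATGNAA, searched on both strands, was in the promoters of 4 of the 10 genes, *Chac1*, *Atf3*, *Trib3* and *Asns*, and in those of 4.51% of all 27025 genes with a promoter window. The ER stress element (CCAAT, 9 bases, CCACG) was in that of *Hspa5* and in those of 0.137% of genes. The palindrome TGACGTCA was in that of *Ppp1r15a*, from 12 to 5 bases before the start, and in those of 2.03% of genes. TGACGTGG and the ERSE-II element were in none of the 10, and in the promoters of 0.714% and 0.0444% of genes. The windows of *Ddit3*, *Atf4*, *Xbp1* and *Sesn2* held none of the 5 motifs, which says only that these letters are not in that stretch. Below, 5′ to 3′ on the strand of the gene, the matched motif is in capitals. It lies 193 to 186 bases before the start in *Chac1*, 110 to 103 before it in *Atf3* and 14 to 21 after it in *Trib3*, on the opposite strand in all 3, so that it reads TTGCATCA or TTACATCA. It lies 23 to 16 bases before the start in *Asns*, and the element of *Hspa5* 65 to 47 bases before it, both on the strand of the gene.
*Chac1* (chr2:119350992-119351291, plus strand): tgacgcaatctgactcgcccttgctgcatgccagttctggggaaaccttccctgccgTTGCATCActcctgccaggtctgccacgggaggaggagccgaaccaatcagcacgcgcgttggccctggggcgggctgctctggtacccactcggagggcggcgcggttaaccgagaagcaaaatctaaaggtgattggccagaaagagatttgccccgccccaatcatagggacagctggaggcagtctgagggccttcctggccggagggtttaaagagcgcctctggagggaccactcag
*Atf3* (chr1:191183284-191183583, minus strand): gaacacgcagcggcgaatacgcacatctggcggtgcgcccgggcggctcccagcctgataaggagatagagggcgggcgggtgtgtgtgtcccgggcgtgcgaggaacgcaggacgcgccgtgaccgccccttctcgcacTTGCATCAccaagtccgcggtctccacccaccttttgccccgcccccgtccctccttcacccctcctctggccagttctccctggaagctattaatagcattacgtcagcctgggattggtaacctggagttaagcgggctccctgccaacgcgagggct
*Trib3* (chr2:152344011-152344310, minus strand): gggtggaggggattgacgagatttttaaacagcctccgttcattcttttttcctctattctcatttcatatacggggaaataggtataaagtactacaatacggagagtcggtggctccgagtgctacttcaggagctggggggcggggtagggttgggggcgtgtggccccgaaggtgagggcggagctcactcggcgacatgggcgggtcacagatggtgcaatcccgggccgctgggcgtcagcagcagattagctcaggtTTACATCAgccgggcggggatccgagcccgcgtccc
*Asns* (chr6:7693160-7693459, minus strand): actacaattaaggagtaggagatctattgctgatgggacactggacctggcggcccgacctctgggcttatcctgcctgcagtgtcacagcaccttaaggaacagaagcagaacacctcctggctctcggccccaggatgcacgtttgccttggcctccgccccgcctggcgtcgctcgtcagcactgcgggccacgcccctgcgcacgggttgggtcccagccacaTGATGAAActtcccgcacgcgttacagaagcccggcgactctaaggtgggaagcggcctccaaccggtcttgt
*Hspa5* (chr2:34771840-34772139, plus strand): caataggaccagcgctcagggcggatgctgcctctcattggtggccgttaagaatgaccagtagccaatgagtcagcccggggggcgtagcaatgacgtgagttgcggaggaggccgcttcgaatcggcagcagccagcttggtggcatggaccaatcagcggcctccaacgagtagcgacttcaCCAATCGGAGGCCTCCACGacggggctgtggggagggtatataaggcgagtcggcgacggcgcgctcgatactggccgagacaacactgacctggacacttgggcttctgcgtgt

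FPKM is scaled by transcript length, so that levels can be set side by side between genes. Over the 18 libraries the genes fell into 3 tiers of level. *Hspa5* (median 481 FPKM), *Atf4* (305 FPKM), *Atf3* (227 FPKM) and *Ppp1r15a* (182 FPKM) were abundant in every library, with a lowest value of 56.38 FPKM. *Xbp1* (median 52.4 FPKM) and *Ddit3* (38.1 FPKM) were intermediate. *Sesn2* (5.29 FPKM), *Asns* (4.84 FPKM), *Trib3* (2.33 FPKM) and *Chac1* (0.295 FPKM) were low. The genes also differed in how far they ranged: the highest library exceeded the lowest 1.94-fold for *Hspa5*, 2.33-fold for *Ppp1r15a*, 2.98-fold for *Xbp1* and 3.80-fold for *Atf4*, but 18-fold for *Ddit3* and 39.8-fold for *Trib3*. For *Chac1*, the gene of a glutathione-degrading enzyme, the lowest library held 0.06 FPKM, about 2 reads, and the highest 31.04 FPKM, about 1048 reads. Differences between library totals were small beside these ranges. The 3 tables were made separately, so levels between populations are given side by side only.

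**Figure D1:**
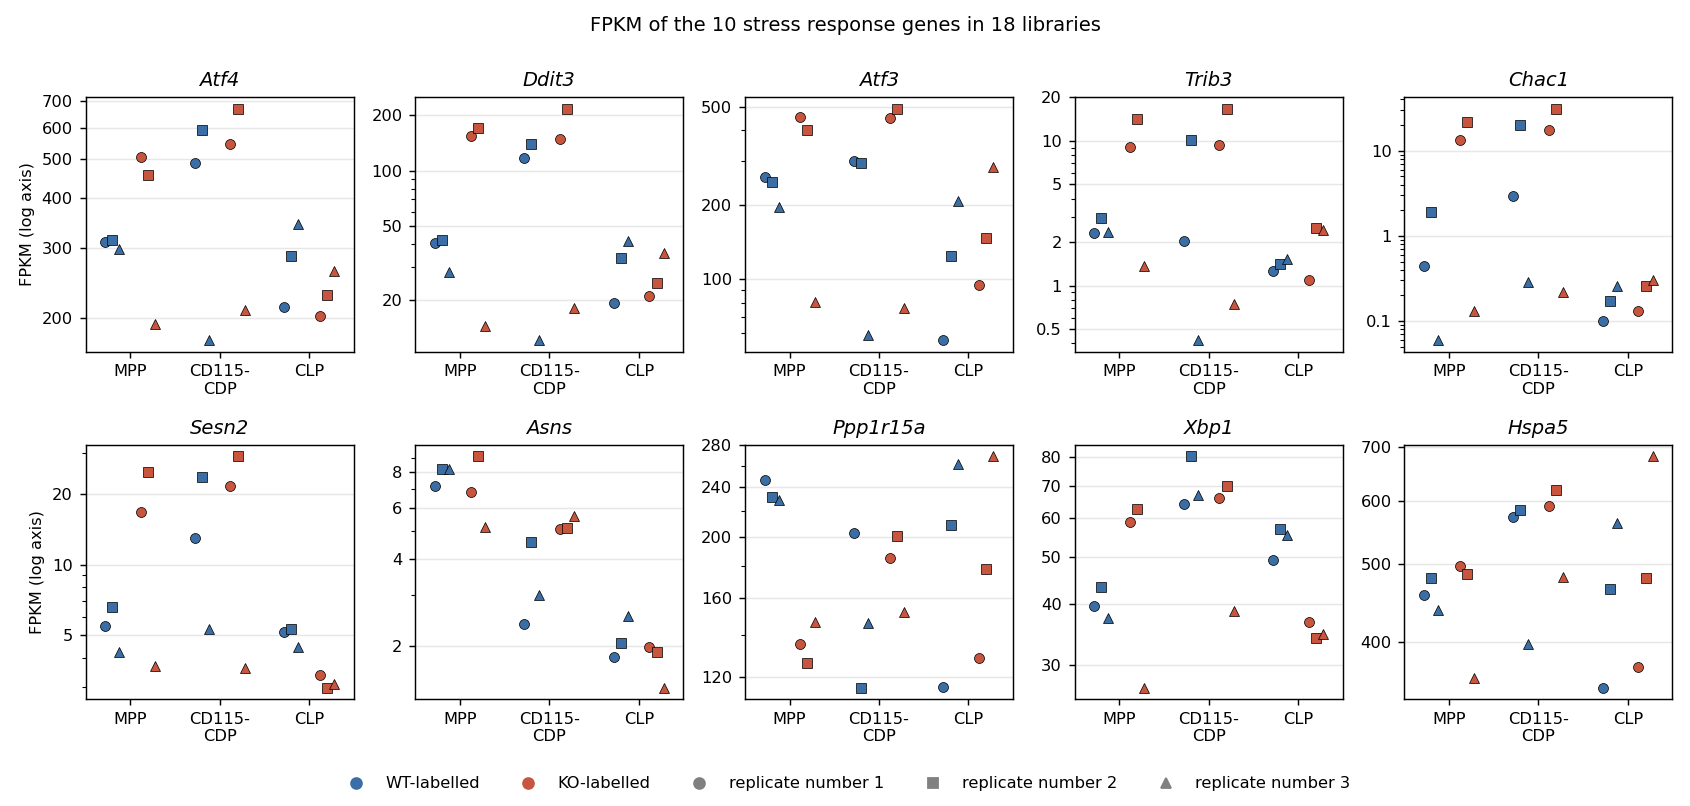
FPKM (log axis, a separate scale for each gene) of the 10 genes in each of the 18 libraries, by population; blue is WT, red is KO-labelled, and circles, squares and triangles are replicate numbers 1, 2 and 3. In MPPs the red triangle (KO 3) lies below the WT libraries and the red circle and square above them for 7 genes, and in CD115- CDPs the triangles of both genotypes are lowest for 7 genes.

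In MPPs, the genes that act downstream of eIF2 phosphorylation split the KO-labelled libraries. *Ddit3*, the gene of the stress transcription factor CHOP, was at 40.32, 41.84 and 28.28 FPKM in WT 1 to 3 and at 154.55, 171.23 and 14.34 FPKM in KO 1 to 3. KO 1 and KO 2 were thus above every WT library and KO 3 below every WT library. *Atf4*, the central transcription factor, was at 310.42, 314.67 and 298.84 FPKM in WT and at 506.94, 457.34 and 193.68 FPKM in KO 1 to 3. *Atf3*, a factor induced by ATF4, followed with 259.70, 247.45 and 195.19 FPKM in WT and 455.14, 402.86 and 80.44 FPKM in KO. The same order of KO 1 and KO 2 above all WT libraries and KO 3 below all of them was seen for 7 of the 10 genes, the others being *Xbp1*, *Hspa5*, *Trib3* and *Sesn2*. Over all tested genes 8.29% had this order.

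*Trib3*, a pseudokinase that restrains ATF4 and AKT signalling, was at 2.32, 2.91 and 2.33 FPKM in WT MPPs and at 9.13, 14.17 and 1.37 FPKM in KO 1 to 3. *Sesn2*, which signals leucine shortage to mTORC1, was at 5.48, 6.57 and 4.24 FPKM and at 16.74, 24.81 and 3.70 FPKM. Both thus had KO 1 and KO 2 over 2-fold above the highest WT library and KO 3 below the lowest. *Chac1* was at 0.44, 1.93 and 0.06 FPKM in WT and at 13.38, 21.49 and 0.13 FPKM in KO 1 to 3, where KO 3 corresponds to about 4 reads. *Xbp1* was at 39.55, 43.42 and 37.46 FPKM in WT and at 58.87, 62.69 and 26.95 FPKM in KO. The chaperone *Hspa5* moved least, from 438.93 to 480.65 FPKM in WT and at 496.76, 486.64 and 361.04 FPKM in KO 1 to 3. *Asns*, the asparagine synthetase gene and a standard ATF4 target, did not follow: it was at 7.19, 8.19 and 8.19 FPKM in WT and at 6.84, 9.10 and 5.17 FPKM in KO.

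*Ppp1r15a* was the exception in MPPs, because its 3 KO-labelled libraries were alike and lower. It was at 246.82, 232.09 and 228.99 FPKM in WT and at 135.14, 126.16 and 146.46 FPKM in KO 1 to 3, which is 236 ± 9.53 and 136 ± 10.2 FPKM (SD, n = 3 each) and a log2 fold change of -0.79 (95% interval -0.99 to -0.59). It was the only 1 of the 10 whose genotypes did not overlap in MPPs, where 30.3% of tested genes did not. The immediate early genes, a list of 12 that cells raise within minutes of stimulation or handling, moved with it: they summed to between 11568 and 12690 FPKM in WT and between 4647 and 5266 FPKM in KO-labelled MPPs, with all 12 above a mean of 0.5 FPKM. Erythroid genes (8 of 8 listed) summed to 360 to 389 FPKM in WT and 32.1 to 57.8 FPKM in KO-labelled MPPs. Sums were also lower in all KO-labelled MPPs for heat shock genes (3327 to 3387 FPKM in WT and 2638 to 2998 FPKM in KO, 8 listed), neutrophil granule genes (2239 to 2373 and 1143 to 1833 FPKM, 8 listed), plasma cell genes (32.8 to 35.7 and 17.3 to 28.3 FPKM, 6 listed) and plasmacytoid DC genes (136 to 156 and 124 to 133 FPKM, 7 listed), with no gene at 0 in all 6 libraries. The part of these lists in the result was not tested. In bulk libraries such as these, fewer cells of a type and less RNA per cell cannot be told apart.

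With all 6 MPP libraries, 0 of the 10 genes reached an adjusted p of at most 0.05 (limma, Benjamini-Hochberg over all tested genes) with at least a 2-fold change, the rule used to call a gene, where 1.48% of 12372 tested genes did, and 1 had an unadjusted p under 0.05 (limma), as had 24.2% of all genes. With no minimum fold, *Ppp1r15a* was the only 1 of the 10 past the threshold in MPPs, where 0.315% of genes were higher and 3.52% lower. Because KO 3 lay opposite to KO 1 and KO 2, intervals were wide. The log2 fold change of *Ddit3* was 0.996 (95% interval -1.14 to 3.13), that of *Chac1* 2.12 (-0.50 to 4.74), and that of *Atf4* 0.21 (-0.62 to 1.03). Without KO 3, a choice made after the values were seen, the log2 fold change was 2.13 for *Ddit3* (standard error 0.172), 3.45 for *Chac1* (0.434), 1.82 for *Trib3* (0.186), 1.75 for *Sesn2* (0.210), 0.88 for *Atf3* (0.136), 0.64 for *Atf4* (0.0735) and 0.59 for *Xbp1* (0.0826). *Hspa5* and *Asns* then stood at 0.10 (0.0700) and 0.01 (0.131). With 0.05 as the limit for the adjusted p and no minimum fold, 7 of the 10 then passed on the higher side and *Ppp1r15a* on the lower. Of all tested genes 15.5% were higher and 38.8% lower. With at least a 2-fold change 4 were called, all higher, where 2.97% of all genes were called higher and 4.43% lower. The library left out is the one in which these same genes lay opposite, so these standard errors and counts are no support for a difference. KO 3 was also the only KO-labelled MPP library with *Trim33* below all WT libraries. *Trim33* was at 4.80 FPKM in KO 3, at 9.71 and 11.66 FPKM in KO 1 and KO 2, and at 8.78 to 10.42 FPKM in WT. The part of this in the fold changes without KO 3 was not tested.

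In CD115- CDPs the same genes divided the libraries by replicate number rather than by genotype. *Ddit3* was at 116.61, 140.04 and 12.05 FPKM in WT 1 to 3 and at 149.23, 217.00 and 17.98 FPKM in KO 1 to 3. *Atf4* was at 489.29, 593.26 and 176.31 FPKM in WT and at 546.02, 669.36 and 209.53 FPKM in KO. *Atf3* was at 300.81, 295.68 and 59.34 FPKM in WT and at 448.89, 490.15 and 76.27 FPKM in KO. Libraries numbered 3 were thus the lowest of both genotypes, by 10.6-fold in WT and 10.2-fold in KO for *Ddit3*, when the mean of libraries 1 and 2 is set against library 3. This held for 7 of the 10 genes, also *Hspa5*, *Trib3*, *Chac1* and *Sesn2*, where 23.2% of tested genes had it. *Chac1* was at 2.92, 20.06 and 0.29 FPKM in WT and at 17.41, 31.04 and 0.22 FPKM in KO, and *Trib3* at 2.03, 10.19 and 0.42 FPKM in WT and at 9.39, 16.71 and 0.75 FPKM in KO. *Sesn2* had 12.98, 23.77 and 5.29 FPKM in WT and 21.65, 29.02 and 3.64 FPKM in KO. *Hspa5* spanned 397.51 to 584.54 FPKM in WT and 481.52 to 618.56 FPKM in KO, a shallow version of the same order.

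Neutrophil granule genes, a list of 8 that includes *Elane* and *Mpo*, moved with these libraries. They summed to 3484 FPKM in WT 3 and 4026 FPKM in KO 3 and to between 606 and 813 FPKM in the other 4 CD115- CDP libraries, with all 8 above a mean of 0.5 FPKM and none at 0. Genes of plasma cells (6 listed) summed to 557.51 FPKM in WT 3, to 114 and 127 FPKM in the other WT libraries and to 37.5 to 75.4 FPKM in KO, again with none at 0. Plasmacytoid DC genes (7 listed) were lowest in number 3 of both genotypes, with 811, 659 and 440 FPKM in WT 1 to 3 and 338, 421 and 175 FPKM in KO 1 to 3, and did not overlap between genotypes. Erythroid genes (8 listed) were low and highest in number 3, with 6.91, 11.7 and 36.4 FPKM in WT and 7.01, 11.6 and 23.3 FPKM in KO. Heat shock genes (8 listed) were highest in number 3 of both genotypes, opposite to the order of the stress response genes. They summed to 2918, 2771 and 3239 FPKM in WT and to 3108, 3184 and 3371 FPKM in KO. Immediate early genes (12 listed) summed to 6839, 4331 and 5758 FPKM in WT and to 5442, 5319 and 4298 FPKM in KO. Number 3 was thus their lowest in KO but not in WT. The part of these lists in the levels of the stress response genes was not tested.

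Within a replicate number the CD115- CDP genotypes differed little for some genes and more for others. The KO library had 1.28, 1.55 and 1.49 times the *Ddit3* of the WT library of the same number, 1.49, 1.66 and 1.29 times its *Atf3*, and 1.12, 1.13 and 1.19 times its *Atf4*. The ratios were 4.63, 1.64 and 1.79 for *Trib3*, 5.96, 1.55 and 0.759 for *Chac1*, 2.13, 1.12 and 1.89 for *Asns*, and 1.67, 1.22 and 0.688 for *Sesn2*, so that *Chac1* and *Sesn2* were lower in KO 3 than in WT 3. *Ppp1r15a* was at 202.82, 115.27 and 146.02 FPKM in WT and at 185.27, 200.86 and 152.12 FPKM in KO, and *Xbp1* at 64.05, 80.43 and 66.84 FPKM in WT and at 66.04, 69.96 and 38.64 FPKM in KO, so that both overlapped. *Asns* did not overlap, with 2.39, 4.58 and 3.0 FPKM in WT and 5.10, 5.14 and 5.67 FPKM in KO, a log2 fold change of 0.57 (95% interval 0.03 to 1.12), and 18.2% of tested genes had no overlap. By limma, 0 of the 10 genes were called (0.106% of 12229 tested genes were) and 0 passed at any fold (0.0409% higher, 0.0654% lower), while 1 had an unadjusted p under 0.05, as had 10.5% of all genes. Once the replicate number entered as a block, the log2 fold change of *Ddit3* was 0.51 with a standard error of 0.0963 in place of 1.22, and that of *Atf3* 0.55 with 0.10 in place of 0.912. These were then the 2 of the 10 past the threshold at any fold, both higher, where 3.78% of genes were higher and 5.56% lower. The block assumes pairing by number, which is not shown. The 10 were also chosen with their values known, so these counts are no evidence for a difference. Without both libraries numbered 3, *Atf3* had a log2 fold change of 0.65 (standard error 0.134) and *Ddit3* of 0.49 (0.190), and *Atf3* was the only 1 of the 10 past the threshold at any fold, where 0.894% of genes were higher and 1.78% lower.

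In CLPs several of the genes again followed the replicate number, here with number 3 highest. *Atf3* was at 56.38, 124.23 and 206.12 FPKM in WT 1 to 3 and at 94.00, 146.03 and 285.15 FPKM in KO 1 to 3. *Ppp1r15a* was at 115.33, 209.00 and 261.28 FPKM in WT and at 128.34, 177.98 and 269.08 FPKM in KO. *Hspa5* was at 350.88, 466.26 and 562.82 FPKM in WT and at 371.82, 480.69 and 681.87 FPKM in KO. *Atf4* (213.63 to 344.06 FPKM in WT and 202.23 to 262.66 FPKM in KO) and *Ddit3* (19.22 to 41.69 FPKM and 21.00 to 35.94 FPKM) had the same order. In all, 5 of the 9 tested genes had library 1 lowest and library 3 highest in both genotypes, where 3.01% of all tested genes had. Immediate early and heat shock genes had that order too: the 12 immediate early genes summed to 4861, 8489 and 9385 FPKM in WT and to 4555, 6405 and 8723 FPKM in KO, and the 8 heat shock genes to 2078, 3850 and 5380 FPKM and to 2674, 4017 and 6437 FPKM, all with a mean of at least 0.5 FPKM. Their part in the order was not tested.

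*Xbp1* and *Sesn2* were the 2 genes whose genotypes did not overlap in CLPs, and both were lower in KO-labelled libraries. *Xbp1* was at 49.24, 57.09 and 55.46 FPKM in WT and at 36.72, 34.03 and 34.73 FPKM in KO, or 53.9 ± 4.14 and 35.2 ± 1.40 FPKM (SD, n = 3 each), a log2 fold change of -0.60 (95% interval -0.82 to -0.38). *Sesn2* was at 5.18, 5.29 and 4.46 FPKM in WT and at 3.38, 2.99 and 3.11 FPKM in KO, a log2 fold change of -0.52 (-0.79 to -0.25). Of all tested genes 33.9% did not overlap. Both were under a 2-fold change, so limma called 0 of the 9 tested genes, against 3.52% of 12339, while 2 had an unadjusted p under 0.05, as had 29.6% of all genes. They were the 2 past the threshold at any fold, where 5.41% of genes were higher and 8.92% lower. With the replicate block, *Atf3* was also past it, on the higher side, with a log2 fold change of 0.48 and a standard error of 0.116 in place of 0.497, and 8.44% of genes were then higher and 12.5% lower. The block again assumes a pairing that is not shown, and these counts are description only. Plasmacytoid DC genes (7 of 7 listed) summed to 1632 to 1965 FPKM in WT and 363 to 387 FPKM in KO-labelled CLPs, with none at 0. Plasma cell genes (6 listed, 4 of them with a mean of at least 0.5 FPKM) summed to 115 to 148 FPKM in WT and 61.0 to 89.9 FPKM in KO. Erythroid genes (5 of 8 at that mean) summed to 34.4 to 56.3 FPKM and 5.58 to 9.81 FPKM, and neutrophil granule genes (8 of 8) to 324 to 591 FPKM and 216 to 300 FPKM, so that none of these 4 sums overlapped between genotypes. Their part in the *Xbp1* and *Sesn2* levels was not tested.

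The remaining genes were low in CLPs. *Trib3* was at 1.27, 1.42 and 1.53 FPKM in WT and at 1.10, 2.52 and 2.42 FPKM in KO, and *Asns* at 1.83, 2.06 and 2.55 FPKM in WT and at 1.99, 1.91 and 1.44 FPKM in KO, with overlap in both. *Chac1* was between 0.10 and 0.30 FPKM in all 6 libraries, or about 3 to 9 reads, under the mean of 0.5 FPKM that a gene needed to be tested. At these read numbers a difference between genotypes in *Chac1* was not detectable.

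**Figure D2:**
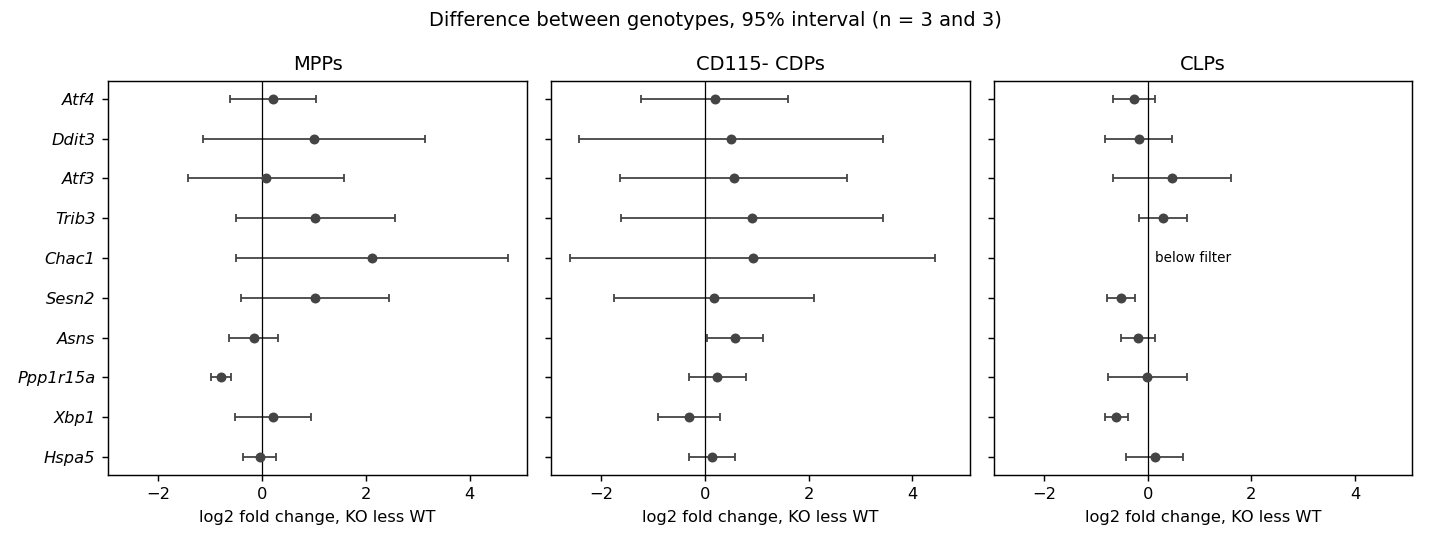
Log2 fold change, KO-labelled less WT, of the 10 genes on the log2(FPKM + 1) scale in each population, with the 95% interval from limma (3 libraries against 3). The intervals of *Ddit3*, *Trib3* and *Chac1* span 0 widely in MPPs and CD115- CDPs. Those that lie wholly below 0 are *Ppp1r15a* in MPPs and *Xbp1* and *Sesn2* in CLPs. That of *Asns* in CD115- CDPs lies wholly above 0 (0.03 to 1.12). *Chac1* in CLPs was below the filter.

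Between populations the difference in genotype effect was largest for *Chac1*, whose log2 fold change in CLPs was lower by 2.05 than in MPPs (standard error 1.72). *Chac1* was below the filter in CLPs (0.10 to 0.30 FPKM), so this mostly reflects its log2 fold change of 2.12 in MPPs. *Sesn2* came next, lower by 1.54 (0.938). That of *Ppp1r15a* was higher by 1.03 in CD115- CDPs (0.403) and by 0.78 in CLPs (0.403) than in MPPs. In limma's F test for the population by genotype interaction, 2.45% of 12421 genes had an adjusted p of at most 0.05 and 0 of the 10 genes did, with 1 at an unadjusted p under 0.05, as had 15.8% of all genes. With the replicate block, which assumes pairing by number in MPPs too, 8.67% of genes did, and *Ppp1r15a* was the only 1 of the 10 among them.

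The wider pathway was described with 6 lists of 97 further genes, of which 97 were listed in MPPs and CD115- CDPs and 96 in CLPs. The lists were chosen with earlier results of these data known. Counts of their genes beside the share of all genes are therefore a description and no independent support. In MPPs 91 passed the filter, and of these only *Gdf15* was called. *Gdf15*, a secreted stress cytokine, fell from 10.58, 10.49 and 9.36 FPKM in the WT libraries to 2.79, 2.17 and 3.20 FPKM under the KO label (log2 fold change -1.59, standard error 0.147, limma adjusted p = 0.00449). With no minimum fold *Slc7a5*, the light chain of a leucine transporter, was higher (34.31 to 38.77 FPKM in WT and 50.02 to 67.75 FPKM in KO, log2 fold change 0.66, limma adjusted p = 0.0470; this gene was chosen after its values were seen). The list medians lay between 0.06 for the ER chaperones and 0.25 for the other ATF4- and CHOP-linked genes on the log2 scale, where the median of all tested genes was -0.11. With median ratio scaling the list medians lay between 0.18 and 0.36 and that of all genes at -0.01. Against the background of 0.315% higher and 3.52% lower, 1 of 91 was higher and 1 lower.

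Without KO 3, 28 of the 91 genes were higher and 19 lower in MPPs at any fold, beside the 15.5% and 38.8% of all genes given above, and 11 were called, beside the 2.97% higher and 4.43% lower at 2-fold. The called genes were *Gdf15*, lower, and 10 that were higher. Among the ATF4- and CHOP-linked genes they were *Sqstm1*, the autophagy receptor p62 (log2 fold change 1.62, limma adjusted p = 0.00162), *Bbc3*, the pro-apoptotic PUMA (1.51), *Ddit4*, an inhibitor of mTORC1 (1.35), *Jdp2* (1.09) and *Tnfrsf10b*, a death receptor (1.01). The 3 in amino acid transport or synthesis included *Slc3a2* (1.24) and *Slc38a2* (1.12), and *Herpud1* (1.31) was among the 2 of ER-associated degradation. Their values had been seen when these were picked, apart from *Slc3a2*, *Sqstm1* and *Bbc3*.

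In CD115- CDPs 90 genes of the lists passed the filter, and by limma 0 were called or past the threshold at any fold, with 6 at an unadjusted p under 0.05, beside the 10.5% of all genes. The 12 listed cytoplasmic tRNA synthetase genes, which charge tRNAs and are known ATF4 targets, all had a fold change above 0. The 12 are a chosen list and not the whole family. Their median log2 fold change was 0.24. Of the listed genes of amino acid synthesis and transport 13 of 14 were above 0, with a median of 0.27. The median over all genes was -0.07, and the share of all genes above 0 was not counted. Without both libraries numbered 3, *Mars* was at -0.009. With FPKM rescaled to TPM these counts were 11 of 12 and 11 of 14, and the median over all genes was -0.19. No gene of either list passed the test without the block. With the replicate block 5 genes were higher and 3 lower, beside 3.78% and 5.56% of all genes. The higher ones were *Phgdh*, the first enzyme of serine synthesis (200.36, 195.34 and 190.09 FPKM in WT and 282.68, 310.19 and 339.12 FPKM in KO, log2 fold change 0.66, limma adjusted p = 0.0200 with the block and 0.173 without), *Shmt2*, *Slc7a5*, *Gars* and *Bbc3*. The lower ones were *Eif2ak1*, the haem-sensing eIF2 kinase, *Ern1*, which encodes IRE1, and *Ero1lb*, an ER oxidase. Without both libraries numbered 3, *Ern1* was the only gene of the lists past the threshold (log2 fold change -0.73, limma adjusted p = 0.0324), beside the 0.894% and 1.78% above. Apart from *Phgdh*, *Gars*, *Bbc3* and *Ero1lb*, these genes were picked with their values in view.

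In CLPs, 8 of 19 ER chaperones and folding enzymes were lower and 0 higher at any fold, and 11 did not pass. Their median log2 fold change was -0.38, where the median of all tested genes was 0.01 and 8.92% of genes were lower. The list median stayed between -0.42 and -0.34 with TPM, median ratio and quantile scaling. Since this list was chosen with earlier results of these data known, its count and median are a description. The 2 called were *Ero1lb*, an oxidase that regenerates protein disulphide isomerases, and *Pdia5*, itself such an isomerase. *Ero1lb* fell from 12.09, 9.09 and 9.23 FPKM in WT to 3.87, 4.38 and 4.11 FPKM in KO-labelled CLPs (log2 fold change -1.11, standard error 0.135, limma adjusted p = 0.00107). *Pdia5* fell from 13.26, 11.69 and 10.36 FPKM to 6.39, 5.32 and 4.02 FPKM (-1.04, standard error 0.163, limma adjusted p = 0.00392). The other 6 had smaller falls: *Sil1* (log2 fold change -0.79), *Fkbp2* (-0.62), *Creld2* (-0.53), *Dnajb11* (-0.51), *Manf* (-0.47) and *Pdia4* (-0.38). Of the 11 that did not pass, *Canx* (0.32), *Ero1l* (0.35) and *Pdia3* (0.07) had a log2 fold change above 0. In contrast *Hspa5*, also an abundant ER chaperone gene, was at 460 ± 106 FPKM in the WT and 511 ± 157 FPKM in the KO-labelled libraries (SD, n = 3 each). Its libraries overlapped between genotypes.

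Of 18 genes of ER-associated degradation and translocation in CLPs, 3 were lower and 0 higher: *Herpud1* (106.74, 156.80 and 157.54 FPKM in WT and 70.23, 78.13 and 96.55 FPKM in KO, log2 fold change -0.76), *Vimp* (-0.62) and *Edem2* (-0.54). The 2 genes of that list most abundant over the 18 libraries, *Sec61b* of the translocation channel and *Ssr4*, did not pass the test (log2 fold change -0.15 and 0.01). Among 16 sensors and eIF2 factors, *Eif2ak3*, which encodes PERK, fell by 0.63 on the log2 scale (12.3 ± 1.98 to 7.56 ± 0.813 FPKM, SD, n = 3 each, limma adjusted p = 0.0194), and *Atf6b* (log2 fold change -0.58), the most abundant of them in CLPs, and *Eif2ak1* were also lower. *Eif2ak4*, the amino acid sensor GCN2, was higher (8.79 ± 1.37 and 12.7 ± 0.517 FPKM, SD, n = 3 each, log2 fold change 0.50, limma adjusted p = 0.0324), as was *Eif2s1*, the subunit of eIF2 that is phosphorylated (log2 fold change 0.45). *Eif2b2*, the most abundant gene of the list over the 18 libraries, did not pass (0.05).

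The amino acid genes and tRNA synthetases of CLPs had no common direction. *Shmt2* of mitochondrial serine breakdown was higher (80.3 ± 8.00 and 112 ± 11.7 FPKM, SD, n = 3 each, log2 fold change 0.48), and *Mthfd2*, the next enzyme of the same folate pathway, lower (26.2 ± 3.58 and 16.4 ± 1.55 FPKM, log2 fold change -0.64). *Eprs* and *Lars* were higher by 0.53 and 0.42 on the log2 scale, while *Nars* and *Gars*, the most abundant of the listed synthetase genes, did not pass (-0.02 and 0.14). Of 11 tested ATF4- and CHOP-linked genes, limma passed 0 in CLPs, with 3 at an unadjusted p under 0.05, beside 29.6% of all genes. Over the 6 lists, 5 genes were higher and 15 lower of 90 tested, beside 5.41% and 8.92% of all genes, and with the replicate block 5 higher and 21 lower, beside 8.44% and 12.5%. Apart from the 2 called genes, the most abundant genes of each list and the 10 genes described first, the CLP genes above were picked with their values in view. The sums of plasmacytoid DC, plasma cell, erythroid and neutrophil granule genes given above also moved with genotype in CLPs, and their part in the ER genes was not tested.

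**Figure D3:**
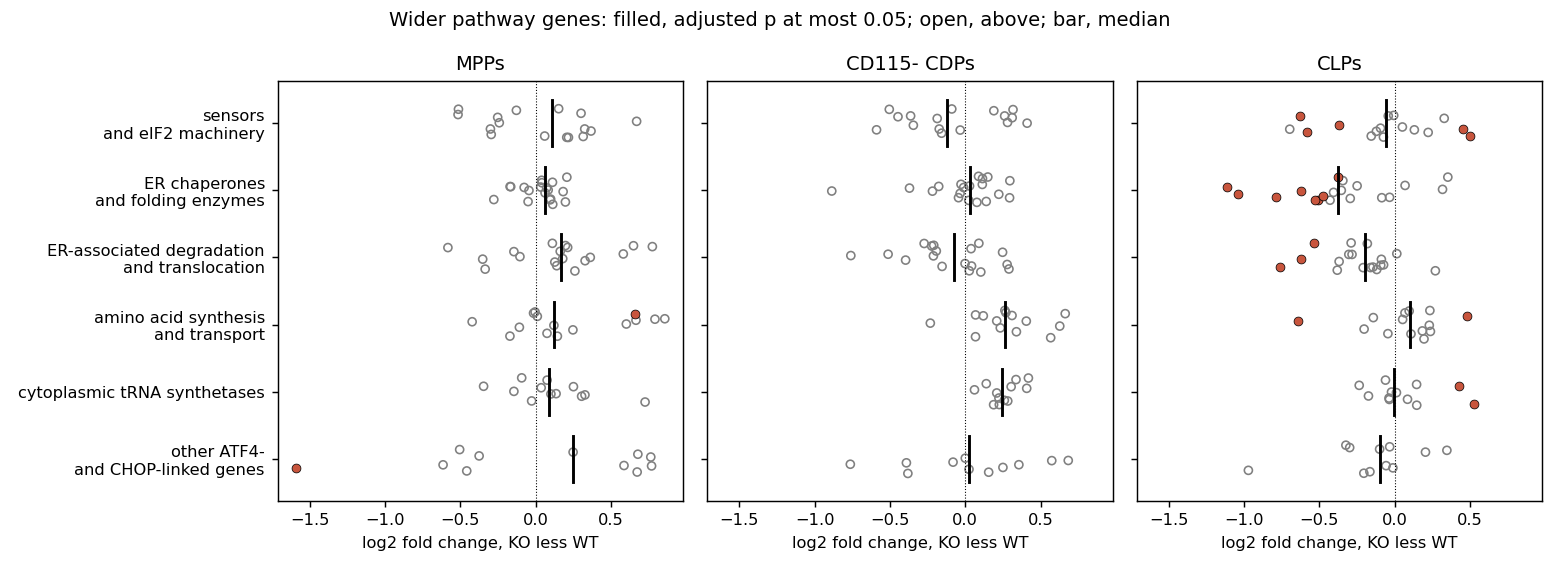
Log2 fold change, KO-labelled less WT, of each tested gene of the 6 wider lists in the 3 populations (3 libraries against 3); filled points have a limma adjusted p of at most 0.05, open points do not, and black bars are list medians. Filled points on the left are concentrated in CLPs, where 8 of 19 ER chaperones and folding enzymes were lower, and 1 gene on each side is filled in MPPs.

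**Figure D4:**
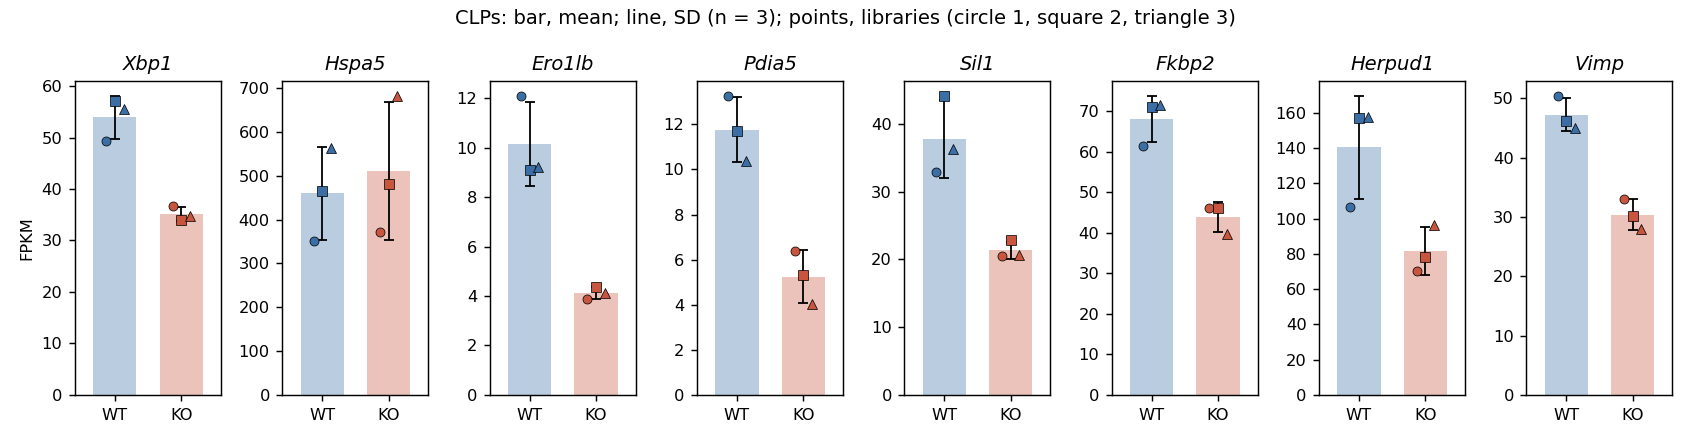
FPKM in the 3 WT and 3 KO-labelled CLP libraries of *Xbp1*, *Hspa5* and 6 genes of ER folding and degradation; bars are means, lines SD (n = 3) and points libraries. WT and KO libraries do not overlap for *Xbp1*, *Ero1lb*, *Pdia5*, *Sil1*, *Fkbp2*, *Herpud1* and *Vimp*, and do for *Hspa5*. The 6 genes are all among those lower at a limma adjusted p of at most 0.05, so their lack of overlap is a description. Of all tested genes in CLPs, 33.9% do not overlap. Some ER folding genes that are not shown, such as *Calr* and *Pdia3*, overlap.

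By the limma interaction test, 5 genes of the lists responded to the KO label differently between populations, beside 2.45% of all genes. They were *Ero1lb* (adjusted p = 0.0310), *Manf* (0.0296), *Dnajb11* (0.0379), *Mthfd2* (0.0390) and *Creld2* (0.0416), of which 4 are ER folding genes. All 5 had a lower log2 fold change in CLPs than in MPPs, by 1.31 for *Ero1lb* and 1.498 for *Mthfd2* and by 0.61 to 0.69 for the others. With the replicate block, which assumes pairing by number in MPPs too, 15 genes passed, beside 8.67% of all. The call of these 5 depended on single libraries: without any 1 of the WT MPP libraries, MPP KO 2, CLP WT 2, CLP WT 3, CLP KO 2 or CLP KO 3, 0 genes of the lists passed.

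Across the 18 libraries, after each gene's mean in a population was removed, *Ddit3* and *Atf4* had a Pearson correlation of 0.97, *Trib3* and *Chac1* of 0.97, and *Chac1* and *Sesn2* of 0.96 on the log2(FPKM + 1) scale. Over the same libraries *Asns* and *Ppp1r15a* had correlations to the other 8 of 0.21 to 0.42 and of -0.21 to 0.59. Within the 6 CLP libraries the values were unlike these: *Chac1* and *Sesn2* had -0.55, and *Ppp1r15a* had 0.97 with *Ddit3*, 0.95 with *Hspa5*, 0.94 with *Atf3* and 0.85 with *Atf4*. These values are a description: libraries share their replicate numbers, and libraries MPP KO 3 and CD115- CDP WT 3 and KO 3 lie far from the rest. The genes outside the 10 whose pattern was most like the mean of the 9 that passed the filter in all populations were *Irf1* (0.98), *Bbc3* (0.98), *Tsc22d1* (0.98), *Sqstm1* (0.97) and *Prr7* (0.97). *Bbc3* was at 25.23, 26.36 and 16.62 FPKM in WT MPPs and at 63.53, 67.43 and 10.74 FPKM in KO 1 to 3, and at 12.61 and 19.09 FPKM in the CD115- CDP libraries numbered 3 against 45.27 to 80.67 FPKM in the others, which is the order of *Ddit3*.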

How the data were processed

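RNA-seq was analysed for 3 populations with 3 WT and 3 KO-labelled libraries each. The deposited values are FPKM per gene, which the authors computed with RSEM 1.2.12 from single-end 50-base reads aligned with Bowtie2 2.2.5. HISAT2 2.0.4 and mm10 are also named in the submitters' processing notes. Read counts were not used here, so no count model was run. FPKM steps of low genes placed the depth at 19.2 to 21.2 M mapped reads, but whole reads could not be assigned gene by gene. No pair of libraries in a group was as close as counting noise alone gives.

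Genes averaging 0.5 FPKM or more in a population were fitted on log2(FPKM + 1) with limma 3.58.1 (trend) in R 4.3.3, for each table separately. Fold changes are on that scale, which understates the change of low genes. A gene was called at a p of at most 0.05 after Benjamini-Hochberg adjustment and a log2 fold change of at least 1 in size. The interaction was fitted over 18 libraries with an intercept for each population. WT and KO-labelled libraries share replicate numbers. Deviations from group means correlated between same-numbered libraries by 0.44, 0.67 and 0.79 in CD115- CDPs and 0.40, 0.33 and 0.13 in CLPs. In MPPs the values were 0.04, 0.48 and 0.47. Between libraries of different numbers they ranged from -0.78 to 0.66 in CD115- CDPs, -0.40 to 0.23 in CLPs and -0.49 to 0.26 in MPPs. These ranges hold some same-number values in every population, so the numbers are not shown to pair the libraries. Fits with the replicate block are alternatives that assume such pairing. The block of the interaction assumes it in all 3 populations. Nothing in the labels says whether libraries came from separate mice, so the p-values measure only the spread between these libraries.

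The 10 genes and the 6 lists were chosen with earlier results of these data known, and which comparison drew attention to the 10 is not recorded. The 10 therefore get no p-value, and counts of them past the limits of the fits are a description beside the share of all genes. Genes of the lists are given with the p adjusted over all tested genes. Named beside the 10 genes and *Trim33* were called genes of a list (at most 4), the 2 most abundant genes of a list with none called, and the 5 genes most correlated with the mean of the 9 that passed the filter in all populations. Others are marked. The fits were tested on simulated data. Summaries used Python 3.11.15 with numpy 2.4.6 and pandas 2.3.3. The alternatives were another pseudocount (0.1), no filter or one at 5 FPKM, TPM, median ratio and quantile scaling, no trend, the replicate block, each library left out, and other call rules.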

Additional observations from a re-analysis of the deposited data

Results flagged for a closer look

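In 5 genes of the wider lists the response to the KO label differed between populations by the limma interaction test. Taking the MPP log2 fold change from that of CLPs left -1.31 for *Ero1lb*, -0.69 for *Dnajb11*, -0.61 for *Creld2*, -0.68 for *Manf* and -1.50 for *Mthfd2*. *Mthfd2* was at 12.42, 12.64 and 13.78 FPKM in WT and at 25.32, 30.31 and 18.52 FPKM in KO-labelled MPPs, and at 22.21, 27.37 and 29.08 FPKM in WT and at 16.72, 17.76 and 14.71 FPKM in KO-labelled CLPs.

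In a further 4 genes all KO-labelled libraries lay on one side of all WT libraries in MPPs and on the other side in CLPs. Of all tested genes, 30.3% had no overlap between genotypes in MPPs and 33.9% had none in CLPs. The share of all genes on opposite sides was not counted, so these 4 are a description and are not shown to exceed it. *Eif2ak4* was lower in KO-labelled MPPs and higher in KO-labelled CLPs, and its log2 fold changes were apart by 0.75. *P4hb*, *Sec61a1* and *Ssr2* were higher in KO-labelled MPPs and lower in KO-labelled CLPs, apart by 0.41, 0.64 and 0.42. The limma interaction test did not pass for these 4, with adjusted p = 0.113 for *Eif2ak4*, 0.428 for *P4hb*, 0.0554 for *Sec61a1* and 0.323 for *Ssr2*. In the limma interaction test with the replicate block, which assumes pairing by number in MPPs too, *Sec61a1* had an adjusted p of 0.0306. Groups of 3 libraries are too small for a check of single outlying libraries, so MPP KO 3 and the CD115- CDP libraries numbered 3 are described by their values in the report.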

How the results depend on the processing

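Of the list genes, MPPs had 1 called, CD115- CDPs 0 and CLPs 2, and 5 passed the interaction test. Leaving out each library in turn gave 1 to 11 in MPPs (11 without KO 3), 1 to 2 in CLPs (1 without WT 1 or KO 3) and 0 to 8 for the interaction (8 without MPP KO 3). With no minimum fold change the counts were 2 in MPPs and 20 in CLPs, and at an adjusted p of at most 0.001 they were 0 in both. With the replicate block the interaction count was 15 and the calls at 2-fold stayed 1, 0 and 2. With the block and no minimum fold change, a pair of choices added after the data were seen, CLPs had 26 genes that passed, CD115- CDPs 8 and MPPs 2. Also added then were fits with no minimum fold change without MPP KO 3 (47 genes) and without CD115- CDP WT 3 and KO 3 (1 gene). The interaction count was 2 with a pseudocount of 0.1 or a filter at 5 FPKM, and 3 with TPM or with no trend. The cause of these changes was not tested. Of the 29 fold changes of the 10 genes, 14 kept their direction under every alternative and 15 did not, 3 of them under a change of scaling: *Hspa5* in MPPs (0.07 with median ratio scaling), and *Asns* in MPPs (0.02) and *Ppp1r15a* in CLPs (0.03) with quantile scaling. Beside the 0 in CD115- CDPs, 6 of 90 list genes had an unadjusted limma p under 0.05, as had 10.5% of all genes. Depth limits *Chac1*, which had 2 to 9 reads in several libraries.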
